A study of Drosophila melanogaster with 2 samples.

Results

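The aminoacyl-tRNA synthetase genes of Drosophila melanogaster, 35 of 13968 protein-coding genes on the main chromosomes, were examined for binding of the chromatin protein ADD1 near their start sites. A gene was included when its symbol was an amino acid's 3-letter name followed by RS, with or without the ending -m or a leading alpha or beta, and GluProRS was added. The rule used gene names only. It gave 20 genes without the ending -m and 15 genes with it. The chromatin came from whole embryos aged 0 to 14 h, both sexes together, of a transgenic line that stably makes CG8290 (ADD1) carrying GFP at its C-terminus, and was sonicated to fragments of 200 to 800 bp. The 2 biological replicates, numbered 2 and 3, form 1 group, and no input sample or GFP-only line was analysed here, so no comparison between conditions exists. The labels conflict, since a free-text line speaks of input control for both samples and the antibody entry gives CG8290; they are described here as ADD1 ChIP. The tagged copy is a transgene, whole embryos mix all cell types, and the driving promoter is not given in the sources used here. Signal that untagged chromatin would also give was not subtracted here. Whether the authors' peak calling used an input sample is unknown here.

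Each aminoacyl-tRNA synthetase joins an amino acid to the tRNAs that carry its anticodons, which is the step at which the genetic code is read chemically. Animals keep separate enzymes for the cytosol and for mitochondria for most amino acids. In fly gene names the ending -m marks the mitochondrial enzyme, and its gene is nuclear like the others. The enzymes fall into unrelated folds, class I and class II, which differ in their catalytic core. They are made in every growing cell, and their genes are regarded as housekeeping genes. ADD1 carries an ADD domain related to that of human ATRX and is known as a partner of the heterochromatin protein HP1a.

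Promoters of the 3 synthetase genes with the strongest optimal peaks and of 1 gene with no region in any list are shown first. Each runs 5′ to 3′ on the gene's strand in the RefSeq sequence of release 6 (dm6), 250 bases before the annotated start to 50 bases after it, so that the start is base 251. Capitals mark matches on either strand to 1 of the searched motifs: the motif 1 core GGTCACAC, the E-box CAGCTG, the DNA replication-related element TATCGATA, the TATA box TATAAA and the GAGA element GAGAG. The beta-PheRS window (chr3R:24252630-24252929, minus strand) held a motif 1 core 53 bases before the start, and its peak summit lay at base 258. The SerRS window (chr2L:3037354-3037653, minus strand) held an E-box and 4 TATA box matches, with the summit at base 227. The IleRS window (chr3L:22288415-22288714, plus strand) held an E-box, a DNA replication-related element and a GAGA element, with the summit at base 141. The AspRS-m window (chr2L:16826828-16827127, plus strand) held a motif 1 core 5 bases after the start, and no listed region had a summit near it.
beta-PheRS: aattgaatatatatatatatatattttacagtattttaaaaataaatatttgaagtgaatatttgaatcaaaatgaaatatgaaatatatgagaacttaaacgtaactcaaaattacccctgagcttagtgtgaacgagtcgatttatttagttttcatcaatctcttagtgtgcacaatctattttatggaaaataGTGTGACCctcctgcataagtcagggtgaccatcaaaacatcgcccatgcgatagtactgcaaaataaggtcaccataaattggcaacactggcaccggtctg
SerRS: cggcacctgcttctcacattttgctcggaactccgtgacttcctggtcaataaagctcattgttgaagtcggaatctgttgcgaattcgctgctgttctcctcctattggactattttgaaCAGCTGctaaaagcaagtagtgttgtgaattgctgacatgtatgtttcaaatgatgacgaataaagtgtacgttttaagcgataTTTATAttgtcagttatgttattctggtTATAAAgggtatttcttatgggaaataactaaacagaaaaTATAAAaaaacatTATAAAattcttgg
IleRS: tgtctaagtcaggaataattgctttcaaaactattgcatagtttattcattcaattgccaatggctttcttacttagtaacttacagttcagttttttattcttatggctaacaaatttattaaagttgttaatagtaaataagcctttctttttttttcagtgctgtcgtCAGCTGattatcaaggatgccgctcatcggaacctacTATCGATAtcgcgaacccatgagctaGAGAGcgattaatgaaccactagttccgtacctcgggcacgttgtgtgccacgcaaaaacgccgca
AspRS-m: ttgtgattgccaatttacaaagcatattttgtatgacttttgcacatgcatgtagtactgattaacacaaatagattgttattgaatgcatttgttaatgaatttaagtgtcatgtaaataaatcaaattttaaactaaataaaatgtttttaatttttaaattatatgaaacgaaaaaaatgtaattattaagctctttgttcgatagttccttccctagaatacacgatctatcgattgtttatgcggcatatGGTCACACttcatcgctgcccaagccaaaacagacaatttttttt

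An optimal ADD1 peak, that is, one on the authors' final list after irreproducible discovery rate (IDR) thresholding, had its summit within 500 bp of a start site of 8 of the 35 synthetase genes. This is 22.9% (95% exact Clopper-Pearson interval 10.4 to 40.1%), beside 12.5% (1746) of the 13933 other protein-coding genes. The genes were beta-PheRS, SerRS, IleRS, AspRS, AsnRS and GlyRS of those without -m, and ArgRS-m and PheRS-m of those with it. The share was 30% (6 of 20, interval 11.9 to 54.3%) without -m and 13.3% (2 of 15, interval 1.66 to 40.5%) with -m, so these intervals overlap and both hold the background share. The intervals cover the counting of genes only, and no test was made, because genes of a list are not replicates and there is 1 group. The optimal list holds 2478 peaks, which are the strongest by signal of the 30000 pooled regions, so a gene's position in the pooled list tells whether it reached that list.

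The strongest synthetase peak lay at beta-PheRS, which encodes the beta subunit of the cytosolic phenylalanine enzyme (gene on 3R, 24250460 to 24252679, minus strand). The peak covered 24252450 to 24252893 with its summit 7 bp inside the gene, in its 5′ untranslated region, and no other gene starts within 500 bp of it. It stood at position 523 in the pooled list, 713 in replicate 2 and 514 in replicate 3, with signals of 265, 119 and 139. Signal is the authors' caller's value on an unstated scale and cannot be set across lists, so positions within each list are compared. Both replicates placed beta-PheRS well inside their 2478 strongest regions, and their own summits lay 39 bp before and 13 bp after the start.

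SerRS, the cytosolic serine enzyme gene (2L, 3035493 to 3037403, minus strand), had the next peak at position 666 with signal 241. Its position was 443 in replicate 2 (signal 145) and 1394 in replicate 3 (signal 92.0). The summit lay 24 bp upstream of SerRS but 16 bp inside the 5′ untranslated region of CG17260, whose start points the other way only 8 bp away. The peak cannot be assigned to either gene from its position.

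IleRS, the cytosolic isoleucine enzyme gene (3L, 22288665 to 22292810, plus strand), stood at position 1035 with signal 197. Replicate 2 placed it at 702 (signal 120) and replicate 3 at 2487 (signal 71.7). The summit was 110 bp upstream of the start, in the 470 bp between IleRS and the divergent gene Hem, a subunit of the SCAR actin regulator. Replicate 3 thus missed its 2478 strongest regions by a few places, although the region itself was listed in both replicates.

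AspRS and AsnRS charge the related amino acids aspartate and asparagine. AspRS (2R, 12877004 to 12883168, plus strand) has 3 annotated start sites, and its peak at position 1315 (signal 178) lay 191 bp upstream of the start at 12880284. Its replicate positions were 899 (signal 108) and 1818 (signal 81.8) in replicates 2 and 3, inside the strongest regions of both. The summit lies in introns of both AspRS and the divergent gene Nmda1, whose start is 54 bp from that AspRS start, so the peak is shared.

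AsnRS (2L, 19129469 to 19131954, minus strand) had its peak at position 1585 with signal 165 and its summit 65 bp upstream of the start. Its position was 1714 in replicate 2 (signal 81.7) and 1639 in replicate 3 (signal 85.5), the closest pair of positions among the 8 genes. The divergent gene DCTN6-p27, a dynactin subunit, starts 369 bp away, and the summit is nearer to AsnRS.

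The remaining peaks were weaker in replicate 2 than in replicate 3 by position. ArgRS-m, the mitochondrial arginine enzyme gene (3R, 7887045 to 7890150, plus strand), stood at 1668 in the pooled list (signal 161), 3242 in replicate 2 (signal 58.2) and 1208 in replicate 3 (signal 97.9). Its summit was 284 bp upstream of ArgRS-m and 28 bp from the start of the divergent gene CG17816. PheRS-m, the mitochondrial phenylalanine enzyme gene (2R, 13968308 to 13969902, plus strand), stood at 2285 (signal 139), 5115 (signal 46.1) and 1382 (signal 92.2) in the pooled, replicate 2 and replicate 3 lists. Its summit lay 52 bp upstream in both the pooled list and replicate 2, with no other start near.

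GlyRS, the glycine enzyme gene (3L, 15095142 to 15097686, plus strand), was the last to reach the optimal list, at position 2466 with signal 133. Replicate 2 placed it at 4047 (signal 51.8) and replicate 3 at 1837 (signal 81.4). Its summit was 183 bp upstream, in the interval shared with the divergent starts of Plp (418 bp away), which encodes a pericentrin-like centrosome protein, and of sstn (423 bp away). The GlyRS peak therefore rests on a pooled signal close to the lowest of the optimal list, 132.9.

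**Figure D1:**
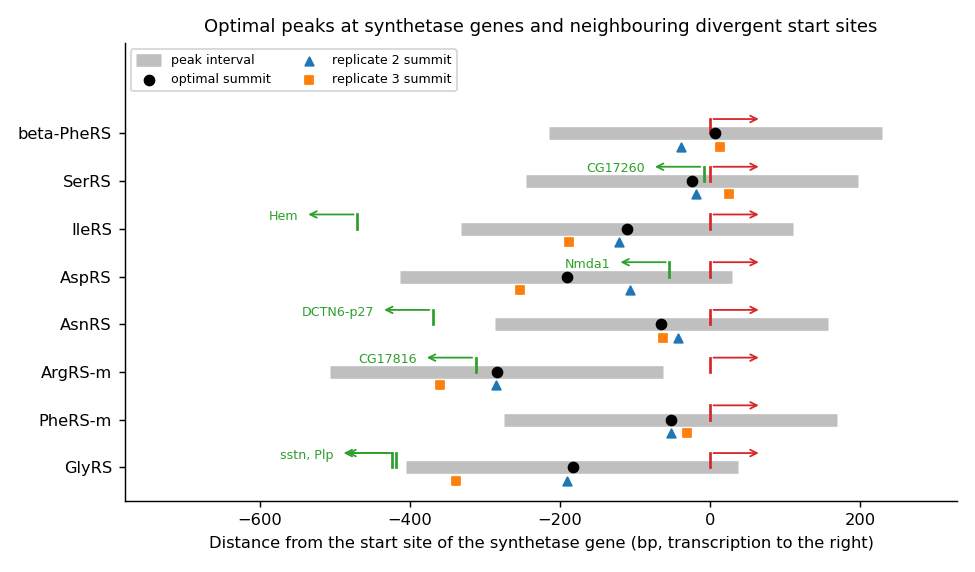
Position of each optimal peak relative to the start site of its synthetase gene, in bp, with transcription of the synthetase to the right; grey bars are peak intervals, black points the optimal summits, triangles replicate 2 summits, squares replicate 3 summits, and green marks the starts of divergent neighbours. The summits lie between 284 bp upstream (ArgRS-m) and 7 bp downstream (beta-PheRS).

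The 8 summits lay close to the starts. Of them 7 were upstream and 1 downstream, beside 1505 upstream, 237 downstream and 4 at the start itself among the 1746 other genes with an optimal summit. The median distance was 87.5 bp, beside 136 bp over those other genes. The median signal was 172 over the 8 genes, beside 188 over the other genes with an optimal summit. No synthetase peak stood ahead of position 523 of the 2478.

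The peaks just outside the optimal list were at ValRS and GluProRS. ValRS, the cytosolic valine enzyme gene, stood at position 2546 with signal 131, was at 3429 in replicate 3 and had no region in replicate 2. Its summit lay 482 bp upstream of ValRS and 31 bp from the start of Kdm4B, a histone demethylase gene. GluProRS, which encodes the fused glutamate and proline enzyme, stood at 2627 with signal 129, and at 3001 and 2319 in replicates 2 and 3. Just inside the list were GlyRS at 2466 and PheRS-m at 2285, so the list's edge runs through this family where neighbouring values differ little.

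Agreement of the replicates was partial for the 8 genes. In replicate 2, 5 of them were among the 2478 strongest regions, and in replicate 3 it was 7. AsnRS, AspRS, SerRS and beta-PheRS were there in both replicates. Over all 35 genes, 14.3% (5) had a start near one of the strongest regions of replicate 2, beside 12.3% of other genes. In replicate 3 it was 22.9% (8), beside 12.4%. An optimal summit that was also among the strongest of both replicates was present at 11.4% (4 genes, interval 3.20 to 26.7%), beside 8.48% of other genes. The 4 genes are all without -m.

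Below the optimal list, the pooled list held a region near 15 further synthetase genes. With the 8 above, 23 of 35 (65.7%, interval 47.8 to 80.9%) had any pooled region, beside 48.9% of other genes. This was 18 of the 20 genes without -m (90.0%, interval 68.3 to 98.8%) and 5 of the 15 with -m (33.3%, interval 11.8 to 61.6%). The intervals of the subgroups do not overlap here, and no test of the difference was made. The pooled list was prepared as peaks and background for IDR, so a region in it is a candidate and not a call.

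Among the genes without -m in that range, AlaRS stood at position 3480 (signal 111), with 4566 and 2717 in replicates 2 and 3. ThrRS stood at 7759, LysRS at 8901, ArgRS at 10221 and alpha-PheRS, the partner subunit of beta-PheRS, at 10381. Weaker regions lay at CysRS (12569), TrpRS (14548), TyrRS (21556), MetRS (23204) and HisRS (24543). HisRS shares its start with Bx on the same strand, so its region cannot be assigned to either. The mitochondrial genes in that range were TrpRS-m (9168), LeuRS-m (11898) and ProRS-m (25008).

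The subunits of the cytosolic phenylalanine enzyme differed in position. The beta-PheRS gene was at 523 and the alpha-PheRS gene at 10381 in the pooled list. In replicate 2 they were at 713 and 25607, and in replicate 3 at 514 and 6149, so beta-PheRS was ahead in each list. The products are made for 1 complex, but the promoters lie on different chromosomes.

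Regions in a replicate list only were near 3 genes. LeuRS was at 14495 in replicate 3, CysRS-m at 19400 in replicate 3, and AlaRS-m at 6768 in replicate 2 and 12770 in replicate 3. AlaRS-m was the gene listed by both replicates but not by the pooled list. A further 9 genes had no region in any list: GlnRS, the glutamine enzyme gene, and AsnRS-m, AspRS-m, GluRS-m, IleRS-m, MetRS-m, SerRS-m, TyrRS-m and ValRS-m. This is 25.7% of the synthetase genes (interval 12.5 to 43.3%), beside 41.4% of other genes, and it was 1 of the 20 genes without -m and 8 of the 15 with -m. Regions in both replicate lists were present at 19 of 35 genes (54.3%, interval 36.6 to 71.2%), beside 38.1% of other genes.

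**Figure D2:**
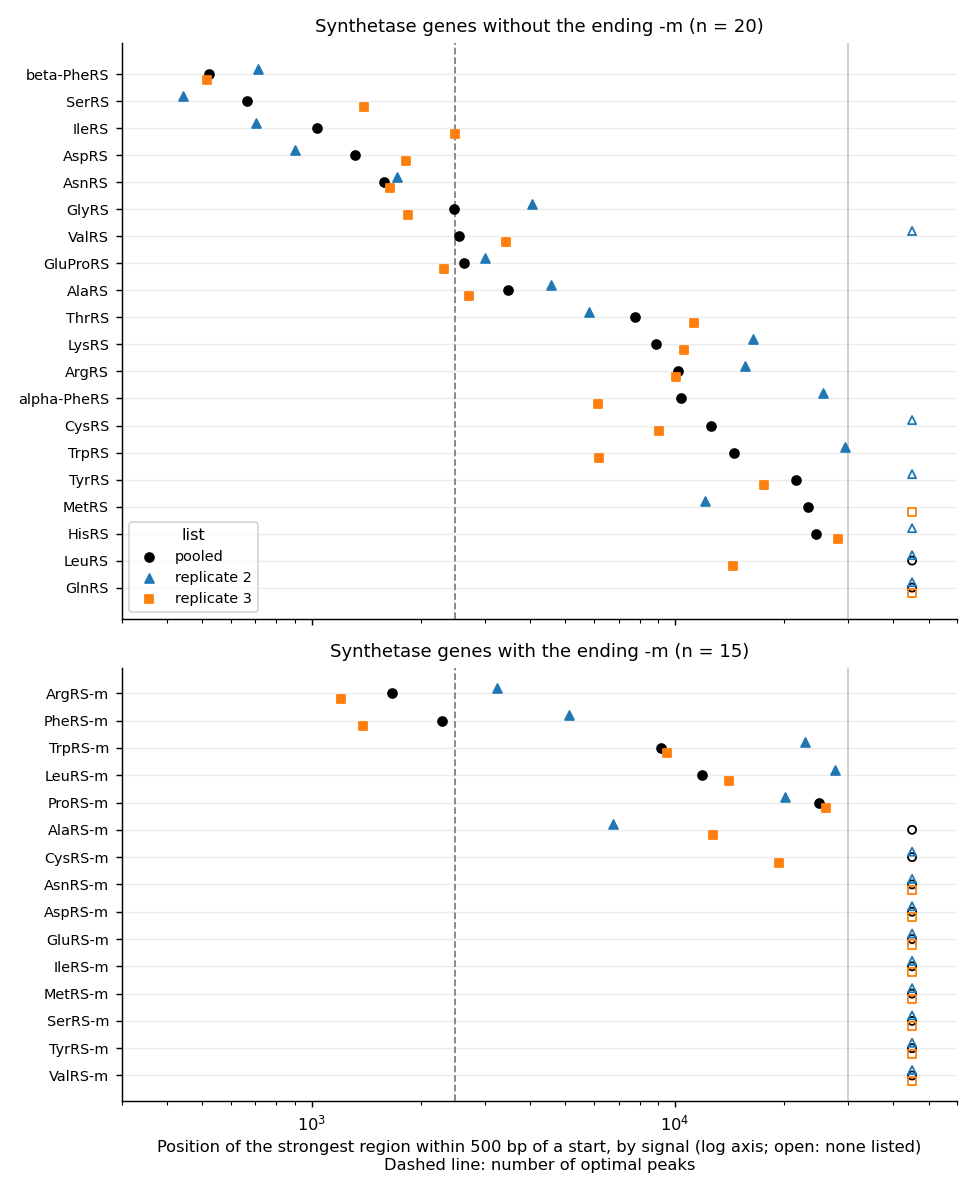
Position of the strongest region within 500 bp of a start site by signal (log axis, 1 is the strongest) for each synthetase gene in the pooled (circles), replicate 2 (triangles) and replicate 3 (squares) lists; open symbols at the right mean that no region was listed, and the dashed line is the number of optimal peaks, 2478. Genes without -m fill most of the left side, and 8 of the 15 genes with -m have open symbols in all lists.

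**Figure D3:**
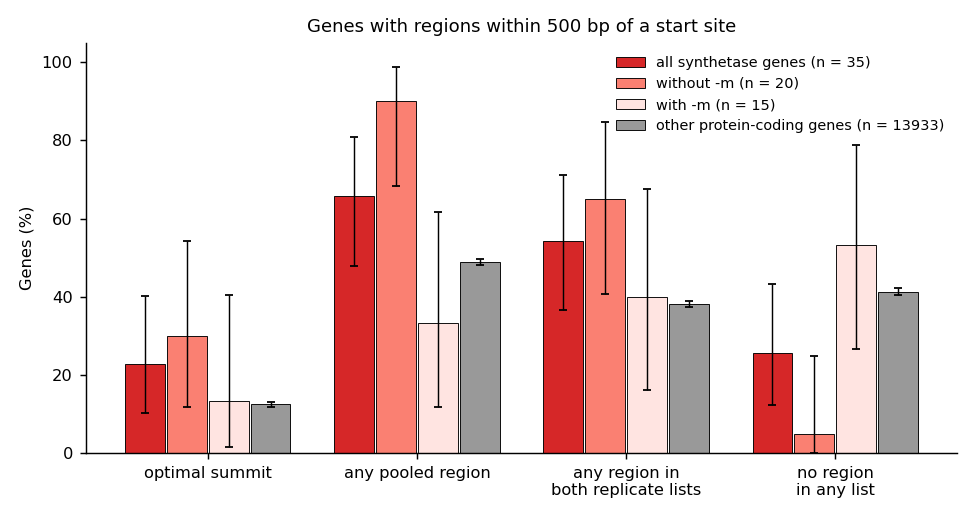
Share of genes (%, with 95% exact intervals as bars) with an optimal summit, any pooled region, a region in both replicate lists, or no region in any list, for all 35 synthetase genes, the 20 without -m, the 15 with -m and the 13933 other protein-coding genes. The largest separation between the subgroups is for any pooled region, 90.0% without -m and 33.3% with -m.

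Replicate positions were compared across genes. Over the 19 genes with a region in both replicate lists, Spearman's rho of the positions was 0.730 and Pearson's r of the positions 0.602. Over the 8 genes with an optimal summit alone, rho was -0.12, r -0.043, and r of the log10 positions 0.114. These 8 were selected by a pooled signal derived from the same replicates, which narrows their range. Their coefficients therefore do not measure how well the replicates agree. Over the 5310 other genes with regions in both lists, rho was 0.693 and r 0.519. These are descriptions across genes, which share the same libraries and a further file from which both lists derive.

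For 15 amino acids a cytosolic and a mitochondrial gene could be set side by side, with GluProRS standing for both glutamate and proline and the stronger PheRS subunit for phenylalanine. In the pooled list the gene without -m was ahead for 12 amino acids. For phenylalanine this rests on the choice of beta-PheRS, since alpha-PheRS (10381) stood behind PheRS-m (2285). The same held in both replicates. The gene with -m was ahead for arginine, leucine and tryptophan. In replicate 2 the gene without -m was ahead for 9 and the gene with -m for the same 3 amino acids, while cysteine, tyrosine and valine had neither. In replicate 3 the gene without -m was ahead for 12 and the gene with -m for arginine and leucine, and methionine had neither. ArgRS-m and ArgRS stood at 1668 and 10221 in the pooled list, 3242 and 15630 in replicate 2, and 1208 and 10091 in replicate 3. LeuRS-m stood at 11898 in the pooled list, where LeuRS had no region. No gene with -m was found by the rule for glutamine, glycine, histidine, lysine or threonine.

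**Figure D4:**
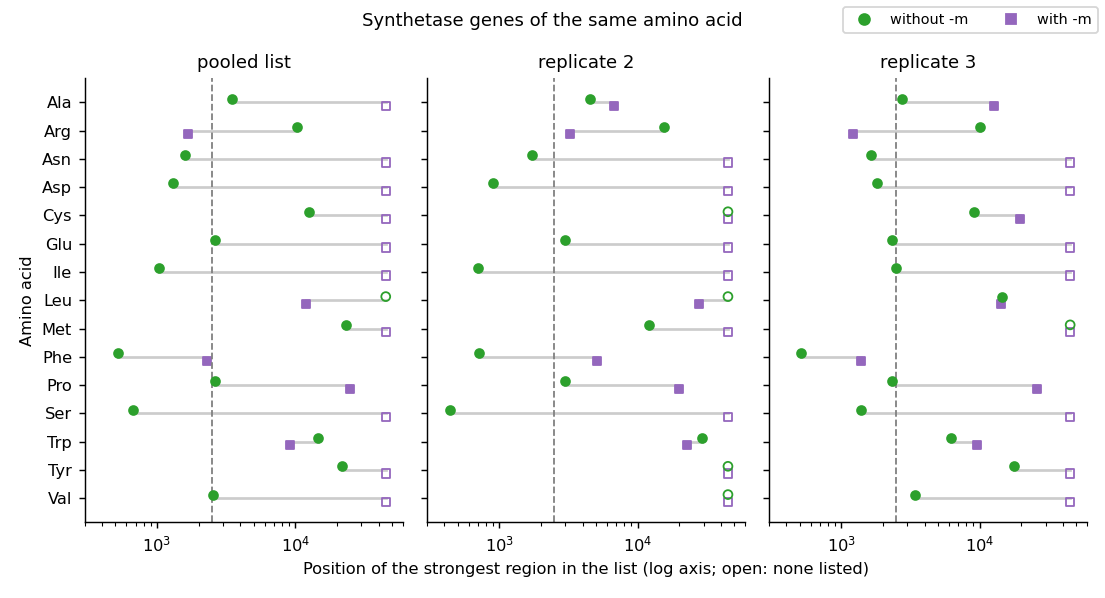
Position by signal (log axis) of the strongest region at the gene without -m (circles) and the gene with -m (squares) for each of 15 amino acids in the pooled, replicate 2 and replicate 3 lists; open symbols mean that none was listed, and the dashed line is at 2478. The circle lies to the left in 12 rows of the pooled panel, and the square does so for arginine, leucine and tryptophan. The phenylalanine circle is beta-PheRS, the stronger subunit.

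By catalytic class, 2 of 18 class I genes (11.1%, interval 1.38 to 34.7%) and 6 of 16 class II genes (37.5%, interval 15.2 to 64.6%) had an optimal summit, beside 12.5% of other protein-coding genes. The class I interval holds that share and the class II interval lies above it. The class I genes were IleRS and ArgRS-m, and the class II genes were beta-PheRS, SerRS, AspRS, AsnRS, PheRS-m and GlyRS. The intervals of the classes overlap, no test was made, and GluProRS, which holds an enzyme of each class, was counted in neither. The class II share depended on the list. For the strongest regions of replicate 2 it was 25.0% (4 of 16, interval 7.27 to 52.4%), beside 12.3%. For optimal peaks strong in both replicates it was again 4 of 16, beside 8.48%, and that interval holds both background shares. For replicate 3 it was 6 of 16, beside 12.4%, which lies below the interval of 15.2 to 64.6%. In mammals some cytosolic synthetases are held in a multi-synthetase complex. Of the 8 genes whose mammalian counterparts belong to it, AspRS and IleRS had an optimal summit (25.0%, interval 3.19 to 65.1%). Of the 12 other genes without -m, 4 had one (33.3%, interval 9.92 to 65.1%). Both intervals hold the 12.5% of other protein-coding genes.

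A larger share of synthetase genes than of other genes stood close to a divergent neighbour. A start on the opposite strand pointing away lay within 500 bp of a start of 22 of the 35 (62.9%, interval 44.9 to 78.5%), beside 29.5% (4113) of other genes. This is a property of the annotation and uses no ADD1 value. It held for 15 of 20 genes without -m (75.0%) and 7 of 15 with -m (46.7%). Neighbours at the shortest distances were CG17260 at SerRS (8 bp), Fitm at AlaRS-m (35 bp) and Lfg at AspRS (38 bp).

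The share with an optimal summit was higher with a divergent start than without one, for synthetase and other genes. A summit counts for every start within 500 bp, so a gene with a divergent neighbour can also count summits at that neighbour. The counting rule can thus raise these shares, and the split was not repeated by nearest start. Of genes with a divergent start, 6 of 22 synthetase genes (27.3%, interval 10.7 to 50.2%) had an optimal summit, beside 24.4% of other genes so arranged. Without one it was 2 of 13 (15.4%, interval 1.92 to 45.4%), beside 7.55%. For any pooled region the shares were 72.7% (16 of 22) beside 71.7% with a divergent start, and 53.8% (7 of 13) beside 39.3% without. Within genes that have a divergent start, the synthetase share therefore stood close to that of other genes. The 2 genes with an optimal summit and no divergent start were beta-PheRS and PheRS-m.

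Because a summit counts for every start within 500 bp, shared summits were counted. The optimal summit was also within 500 bp of another gene's start at 6 of the 8 synthetase genes (75.0%, interval 34.9 to 96.8%), beside 62.7% (1094 of 1746) of other genes with an optimal summit. When each summit counted only for the gene of its nearest start, 5 synthetase genes were left, without ArgRS-m, AspRS and SerRS, beside 9.06% (1263) of other genes. The count was also split by the number of annotated starts. Of genes with 1 start, 6 of 26 synthetase genes (23.1%) had an optimal summit, beside 9.15% of other genes. With 2 starts it was 1 of 8 (12.5%), beside 18.5%.

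**Figure D5:**
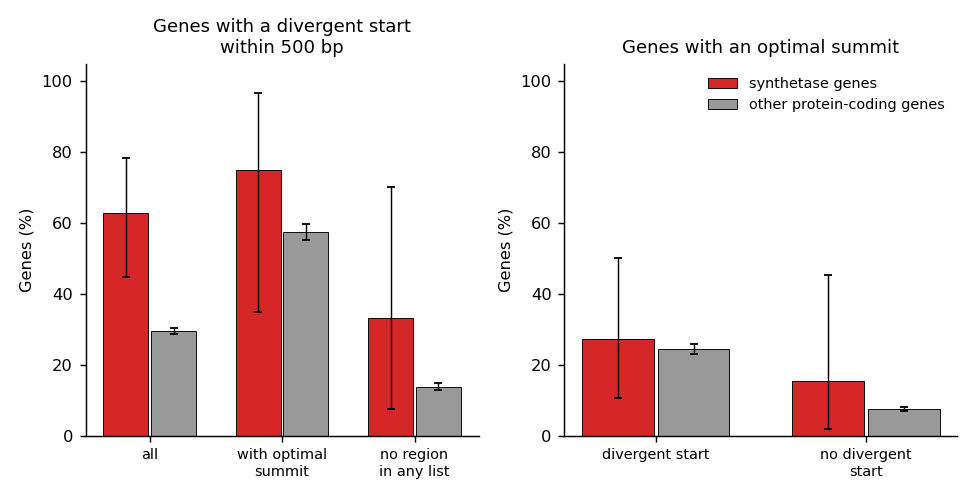
Left, share of genes (%) with a divergent start within 500 bp, for all genes, genes with an optimal summit and genes with no region in any list; right, share of genes with an optimal summit, split by whether a divergent start is present. Synthetase genes are red and other protein-coding genes grey, with 95% exact intervals as bars; in the right panel the bars are 27.3% beside 24.4% with a divergent start and 15.4% beside 7.55% without.

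The E-box of the printed SerRS and IleRS promoters was frequent in the family. CAGCTG, a palindrome bound by basic helix-loop-helix proteins, occurred in 17 of the 35 promoter windows of 300 bases (48.6%, interval 31.4 to 66.0%), beside 17.6% of the other protein-coding genes. It was in 10 of 20 windows of genes without -m and 7 of 15 of genes with -m. By ADD1 peaks, it was in 3 of 8 synthetase promoters with an optimal summit (37.5%, interval 8.52 to 75.5%), beside 21.6% of other genes with one. It was in 14 of 27 synthetase promoters without one (51.9%, interval 31.9 to 71.3%), beside the 17.6% of all other genes. The intervals of these synthetase subsets overlap. Counted from 100 bases before the start to 50 after, a window chosen after these matches were seen, 13 of 35 promoters (37.1%) held it, beside 12.0% of other genes.

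For each other motif searched, the exact interval of the synthetase share held the background share. The DNA replication-related element TATCGATA, the site of the factor Dref, was in 5 windows (14.3%, beside 9.34% of other genes), those of AlaRS, ArgRS, IleRS, PheRS-m and TrpRS. The motif 1 core GGTCACAC, the site of M1BP, was in 5 windows (14.3%, beside 7.67%), those of AsnRS-m, AspRS-m, GlnRS, ProRS-m and beta-PheRS. Of these 5, beta-PheRS had an optimal peak and AsnRS-m, AspRS-m and GlnRS had no region in any list, which the printed beta-PheRS and AspRS-m windows show side by side. The TATA box TATAAA was in 54.3% (19), beside 45.7%, and GAGAG was in 17.1% (6), beside 29.7%. The Myc E-box CACGTG was in 5.71% (2, GlnRS and LeuRS-m), beside 4.19%. TGATGCAA, an amino acid response element known from mammals, was in 0 of 35 (upper limit of the exact interval 10%), beside 0.818%. A match is a description of the letters and not a shown binding site.

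Genes that work beside the synthetases were examined as lists chosen with earlier results known, and 28 of 29 listed genes were found by name. Of them 5 (17.9%, interval 6.06 to 36.9%) had an optimal summit, beside the 12.5% above. The strongest was eEF1gamma, a subunit of the elongation factor that recharges eEF1alpha with GTP, at position 77 (signal 532), with 56 and 139 in replicates 2 and 3. eEF1alpha1, which carries charged tRNA to the ribosome, stood at 705 (signal 236), with 824 and 448. These were 2 of 8 delivery genes (25.0%, interval 3.19 to 65.1%), beside the same 12.5%. The genes eEF1alpha2 (7261) and eEF1delta (8614) were far behind, while eEF1beta had no pooled region.

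Of 5 genes of the response to amino acid shortage, Thor and Gcn2 had optimal summits (40.0%, interval 5.27 to 85.3%), beside 12.5% of other protein-coding genes. Thor, the 4E-BP translation repressor, stood at position 895 (signal 211), with 1132 and 790 in the replicates. Gcn2, the kinase that senses uncharged tRNA, stood at 1442 (signal 172), with 1692 and 1407, and shares its summit with Ugt35D1. The transcription factor gene crc, the fly ATF4, stood at 16079, PEK at 12268 and eIF2alpha at 24553.

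Of 8 tRNA maturation genes, La had an optimal summit (12.5%, interval 0.316 to 52.7%), beside 12.5% of other protein-coding genes. La, which binds the ends of new RNA polymerase III transcripts, stood at position 707 (signal 236), with 703 and 635 in the replicates. It shares its summit with RtGEF. CG2100 stood at 2776 and Mt2, a tRNA methyltransferase gene, at 8962, while Nsun2 had only a replicate 3 region, at 19743. Of the 7 synthetase-associated genes, which also include GatA, GatB and GatC of the mitochondrial amidotransferase and the SerRS-m relative Slimp, none had an optimal summit (0.00%, upper limit 41.0%), and 5 had a pooled region, beside 48.9% of other genes. AIMP1 and AIMP2, scaffold proteins of the multi-synthetase complex, had no region in any list, and AIMP3, another of them, stood at 3878.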

How the data were processed

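Chromatin of ADD1-GFP embryos was profiled by ChIP-seq in 2 replicates. The authors deposited 4 region lists in dm6 coordinates (2 replicate lists, 1 pooled and 1 optimal IDR-thresholded list), each with a signal per region on an unstated scale, a −log10 q-value (not used here) and a summit offset. Per the labels, regions are peaks and background prepared for IDR. The caller, its IDR cutoff and the aligner are not given in the labels or headers used here. Depth per sample is unknown, and intervals reflect counts of genes alone.

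Start sites came from Ensembl release 115 without transposable elements, on the main chromosomes. Summits (1-based in the text) within 500 bp of any start of a gene counted for it, and the region of highest signal gave its position. Shares have 95% exact Clopper-Pearson intervals, with no test. RefSeq and Ensembl coordinates were identical for 35 of 35 genes, and 35 of 35 start codons read ATG in the RefSeq sequence. Motifs were searched on both strands. Python 3.11.15, pandas 2.3.3, numpy 2.4.6, scipy 1.17.1 and matplotlib 3.10.9 were used, and counting was checked on simulated data.

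The members, gene lists and motifs were chosen with earlier results of these data known. Every synthetase gene is named; those with an optimal summit get full values, and of the other lists every gene with an optimal summit and up to 3 without, in alphabetical order. Alternatives were other windows, thresholds, replicate subsets and assignment rules.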

Additional observations from a re-analysis of the deposited data

How the results depend on the processing

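The count of 8 synthetase genes stayed within 1.5 times under 200 bp (7), 1000 bp (8), interval overlap (8) and protein-coding transcripts (8). The shares were 20%, 22.9%, 22.9% and 22.9%, beside 9.31%, 14.1%, 13.3% and 12.5% of other genes. The count was 3 among the 1239 strongest optimal peaks (3 without -m, 0 with -m), which is 8.57%, beside 6.58% (917) of other genes. Among peaks strong in both replicates it was 4 (11.4%, beside 8.48%, 0 with -m). By nearest start it was 5 (14.3%, beside 9.06%, 1 with -m). Leaving out a replicate gave 5 to 8 genes, and 0 to 2 with -m; without replicate 2, GluProRS entered and IleRS left. beta-PheRS was present under each of these 9 alternatives. The 200 bp window gave 1 gene with -m, 3 of 28 pathway genes (beside 9.31% of other genes), 2 shared summits and a median signal of 178. Shared summits of other genes were not counted at 200 bp. Nearest start gave 3 of 28 pathway genes, beside 9.06%. The median signal was 210 for peaks strong in both replicates. Within 100 bp of the 8 summits, the E-box share was 12.5% (beside 12.8% of all optimal summits at start sites). The Myc E-box share was 0% (beside 3.14%) and the GAGA share 37.5% (3 summits, interval 8.52 to 75.5%, beside 25.5%). The DNA replication-related element share was 25.0% there (2 summits, interval 3.19 to 65.1%), beside 9.0%, which that interval holds. With this element's share, 46 values stayed within 1.5 times (counts), at the same value (signal) or within the exact interval (motif shares). Splits by a divergent start or by 1 start site, with 6 genes each, and the narrower E-box window were chosen after seeing the data. Depth and input are unknown, so an absent region may be undetected. No paired analysis was possible because there is 1 group.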

Other observations

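Of the 27 synthetase genes without an optimal summit at a start, 3 had one within 2000 bp of a start: LeuRS-m at 1006 bp, AlaRS at 1103 bp and alpha-PheRS at 1848 bp. The median distance to the nearest optimal summit over the 27 genes was 10024 bp. These distances were not computed for other protein-coding genes, so whether the count or the median is unusual cannot be told. HisRS, the histidine enzyme gene, held an optimal peak inside its body 2181 bp from its start, at position 554 with signal 258, although its start region stood at 24543 in the pooled list. Because Bx starts at the same base on the same strand, this peak was not assigned to HisRS alone.

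By chromosome arm, an optimal summit was present at 2 of 6 synthetase genes on 2L, beside 12.0% of other protein-coding genes there, and at 2 of 8 on 2R, beside 11.2%. It was present at 2 of 10 on 3L, beside 13.6%, and at 2 of 7 on 3R, beside 12.2%. On X it was 0 of 4 (upper limit of the exact interval 60.2%), beside 13.2%. The 4 X-linked genes each had a pooled region, beside 56.7% of other genes on X. The GC content of the promoter windows had a median of 34.5% at the 8 genes with an optimal summit and 35.3% at the 27 without, beside 37.0% at other genes with an optimal summit and 38.0% over all other protein-coding genes.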
